A study of Mus musculus with 10 samples.

Results

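The 10 genes described here mark the granule cells of the dentate gyrus: Prox1, Dsp, Plk5, Tmem108, Tdo2, C1ql2, C1ql3, Stxbp6, Fam163b and Calb1. They are listed granule cell genes that were selected on their measured values in these arrays, namely the Dp3Yah and control values per mouse and their correlation with each other, so the group differences and correlations below are descriptions and carry no test. All 10 were measured, out of 19939 genes, each by a single probe set annotated to 1 gene. Total RNA came from the whole hippocampus (left and right) of male mice at 16 weeks of age, with 1 Affymetrix Mouse Gene 1.0 ST array per mouse. The 5 Dp3Yah mice carry 3 copies of the mouse chromosome 16 interval from Hspa13 to App, homologous to a part of the human chromosome that is trisomic in Down syndrome (Hsa21), and the 5 controls are littermates with 2 copies. The labels give a C57BL/6N background for both groups, while the study's methods give a backcross towards C57BL/6J. The duplication is present in every cell and is not driven by a promoter, and the labels call the mice biological replicates. None of the 10 genes lies on chromosome 16.

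Granule cells are the principal neurons of the dentate gyrus. They receive input from the entorhinal cortex and send mossy fibres, their axons, to mossy cells and to CA3 pyramidal cells, and new ones are added in the adult. In RNA from the whole hippocampus, fewer granule cells and less RNA of these genes per granule cell cannot be told apart.

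The values are log2 signals per probe set after RMA, so a difference of 1 is a 2-fold change. Array medians lay between 5.64 and 5.71 and no pair of arrays held identical values. Over all genes limma called 3, Hspa13, Mrpl39 and Ncam2, all on chromosome 16 and all higher in Dp3Yah mice, with differences of 0.60 (SE 0.069), 0.48 (SE 0.046) and 0.58 (SE 0.070). The array of Dp3Yah 2 received the lowest weight in limma's array weights, 0.478. Of the genes that define the labelled tissue, Prox1 lay between 8.05 and 8.82 on all arrays and the CA1 gene Wfs1 between 9.59 and 10.4. Choroid plexus genes varied widely between mice in both groups, from 6.40 to 8.35 in Dp3Yah and from 6.31 to 8.49 in control mice as a mean of 7 genes.

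The promoter sequences of 4 genes are shown because Prox1 and Dsp varied together most closely among the 10 and because C1ql2 and Tmem108 were the genes without overlap between the groups. Each is the 250 bases upstream of a RefSeq start in GRCm38.p6, read 5′ to 3′ on the gene's strand, with every E-box (CANNTG, the motif bound by basic helix-loop-helix factors such as the NeuroD family) in capitals. The windows lie at chr1:190170828-190171077 on the minus strand for Prox1, at chr13:38151044-38151293 on the plus strand for Dsp, at chr1:120340332-120340581 on the plus strand for C1ql2 and at chr9:103761838-103762087 on the minus strand for Tmem108.
Prox1: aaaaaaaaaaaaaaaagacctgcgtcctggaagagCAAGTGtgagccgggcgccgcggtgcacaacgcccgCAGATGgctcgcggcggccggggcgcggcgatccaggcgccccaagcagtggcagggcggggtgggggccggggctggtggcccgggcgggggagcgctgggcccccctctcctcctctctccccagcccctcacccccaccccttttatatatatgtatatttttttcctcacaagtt
Dsp: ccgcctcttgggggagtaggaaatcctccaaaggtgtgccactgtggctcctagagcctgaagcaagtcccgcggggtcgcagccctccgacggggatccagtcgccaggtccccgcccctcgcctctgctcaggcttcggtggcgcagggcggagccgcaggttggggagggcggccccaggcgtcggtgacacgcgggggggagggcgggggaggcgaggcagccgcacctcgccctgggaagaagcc
C1ql2: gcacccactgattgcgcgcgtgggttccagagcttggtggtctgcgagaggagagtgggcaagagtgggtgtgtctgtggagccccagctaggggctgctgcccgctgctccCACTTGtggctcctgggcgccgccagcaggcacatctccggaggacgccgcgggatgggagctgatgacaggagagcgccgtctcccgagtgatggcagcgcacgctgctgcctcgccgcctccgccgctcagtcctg
Tmem108: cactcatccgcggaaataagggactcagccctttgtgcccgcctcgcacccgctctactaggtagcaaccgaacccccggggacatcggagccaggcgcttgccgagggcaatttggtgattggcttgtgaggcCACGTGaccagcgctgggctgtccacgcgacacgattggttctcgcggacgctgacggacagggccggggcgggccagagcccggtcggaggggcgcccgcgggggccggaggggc

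The Prox1 window held 2 E-boxes, those of C1ql2 and Tmem108 held 1 each and that of Dsp held 0. Of the 11 windows of the 9 genes that had one in the table used here, 8 held an E-box, while 66.2% of all 32851 windows did. A GC box (GGGCGG on either strand) was in 7 of the 11 windows and in 32.7% of all. A cAMP response element (TGACGTCA) was in 0 of the 11 and in 1.55% of all. The 4 windows printed are rich in G and C, with 64.8% for Prox1, 72.4% for Dsp, 68.8% for C1ql2 and 69.2% for Tmem108. Prox1 and Tmem108 each have a second annotated start with its own window, and Calb1 was not among the windows used here.

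Of the 10 genes 8 had a lower mean in Dp3Yah than in control mice, and Tdo2 and Calb1 had a higher one. Their median difference was -0.20 on the log2 scale and their mean difference -0.14, where the median over all genes was -0.005 and 53.2% of all genes were negative. The largest differences were those of Tmem108, Fam163b, C1ql2 and Plk5. Limma called 0 of the 10 genes (5 had an unadjusted p under 0.05), where it called 0.0150% of all genes (1013 of 19939 had such a p). Every Dp3Yah mouse lay below every control for 2 genes, C1ql2 and Tmem108, a pattern that 0.391% of all genes showed, and the reverse pattern, all Dp3Yah mice above all controls, was seen for 0 of the 10 and for 0.522% of all genes. The rank test placed 5 genes past its lower and 1 past its upper threshold, where 4.59% of all genes were past either. Since these genes were chosen with this contrast known, nothing is read from these shares.

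**Figure D1:**
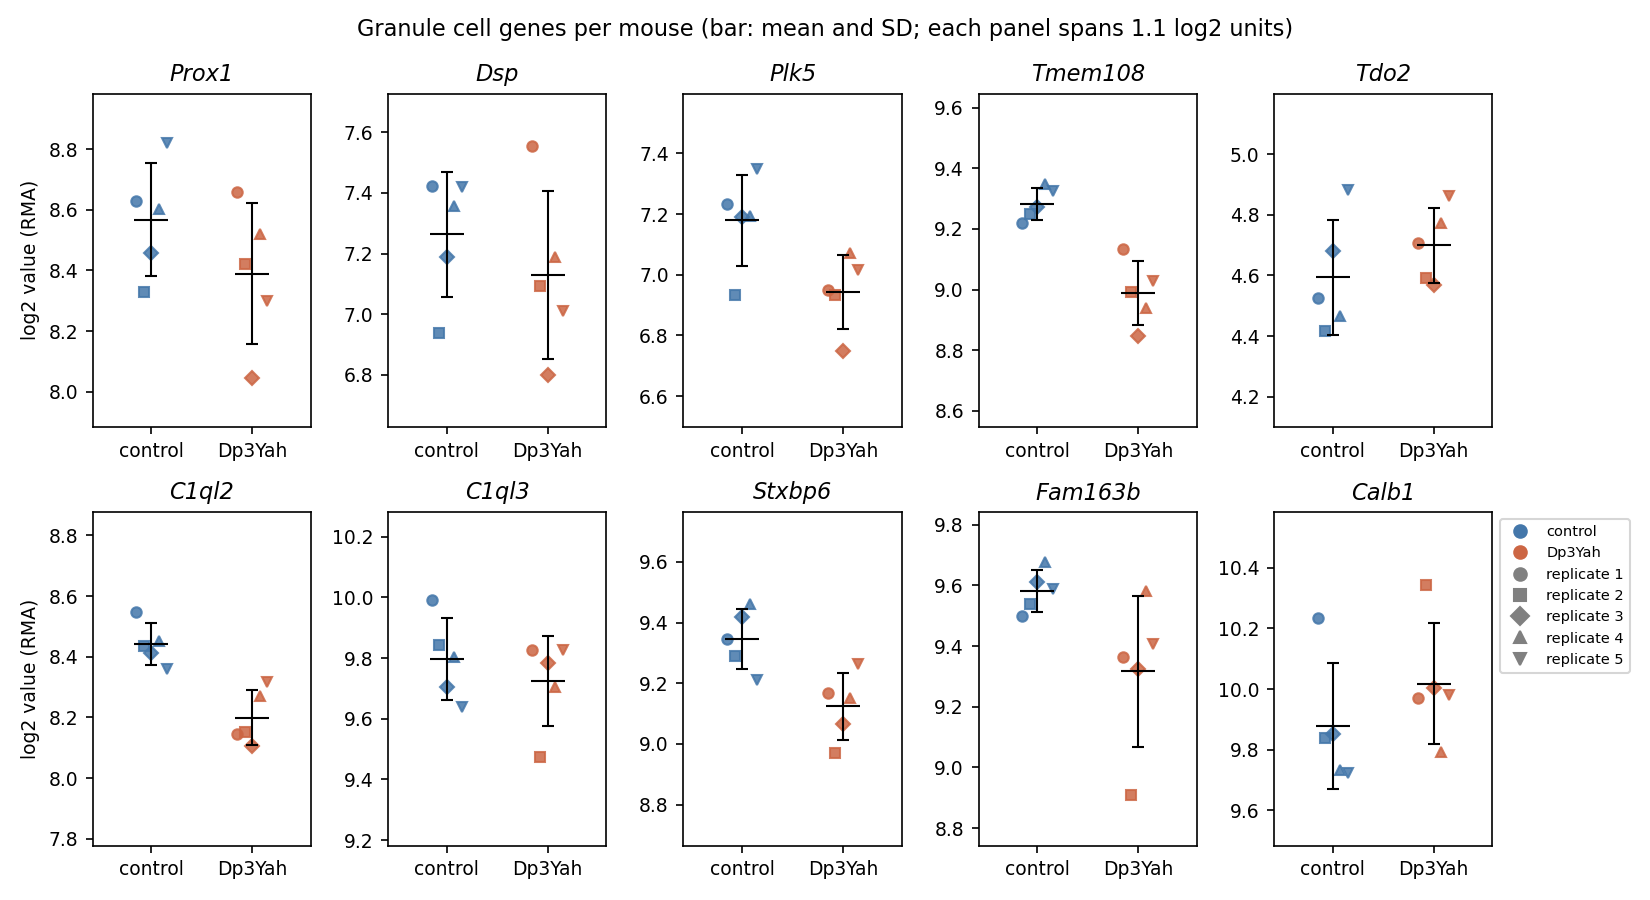
Log2 value (RMA) of each granule cell gene (y axis) in 5 control and 5 Dp3Yah mice (x axis); symbols give the replicate number, the line the group mean and the bar the SD, and each panel spans 1.1 log2 units. C1ql2 and Tmem108 have no overlap between the groups, while Tdo2 and Calb1 have the higher mean in Dp3Yah mice.

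Prox1 encodes the homeobox transcription factor that specifies and maintains the identity of granule cells. Its values were 8.66, 8.42, 8.05, 8.52 and 8.30 in Dp3Yah mice 1 to 5 and 8.63, 8.33, 8.46, 8.60 and 8.82 in controls 1 to 5. The groups overlapped, with 2 Dp3Yah mice below the lowest control and with Dp3Yah 1 above all controls but the highest. The difference was -0.18 (SE 0.11), or 1.13-fold lower, and it became -0.09 without Dp3Yah 3.

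Tmem108, a transmembrane protein of neurons known for its part in dendritic spines of granule cells, showed the largest difference of the 10. It measured 9.13, 8.99, 8.85, 8.94 and 9.03 in Dp3Yah mice and 9.22, 9.25, 9.27, 9.35 and 9.32 in controls. All 5 Dp3Yah mice were below the lowest control, and the controls lay closer together (SD 0.052) than the Dp3Yah mice (SD 0.106). Its difference was -0.29 (SE 0.053), 1.23-fold lower, and stayed between -0.33 and -0.26 with any 1 mouse left out.

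Plk5 belongs to the polo-like kinase family and is expressed in brain. Dp3Yah mice measured 6.95, 6.93, 6.75, 7.07 and 7.02 and controls 7.23, 6.93, 7.19, 7.19 and 7.35. Only control 2 was as low as the Dp3Yah mice, so 2 of 5 Dp3Yah mice were below every control although 4 of 5 controls were above every Dp3Yah mouse. The difference was -0.24 (SE 0.076).

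Dsp encodes desmoplakin, which links desmosomes to intermediate filaments and which in hippocampus is a granule cell gene. It measured 7.56, 7.09, 6.80, 7.19 and 7.01 in Dp3Yah mice and 7.42, 6.94, 7.19, 7.36 and 7.42 in controls. The highest and the lowest of the 10 arrays were both Dp3Yah mice, 1 and 3. The difference of -0.13 (SE 0.13) moved with single mice, to -0.24 without Dp3Yah 1 and -0.05 without Dp3Yah 3.

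Tdo2, the tryptophan dioxygenase that opens the kynurenine pathway, is found in liver and in mature granule cells. Its signal was dim, below the array medians, at 4.71, 4.59, 4.57, 4.77 and 4.86 in Dp3Yah mice and 4.52, 4.42, 4.68, 4.47 and 4.88 in controls. The groups overlapped over most of their range and the highest array was a control. The difference was 0.11 (SE 0.087), and it lay between 0.06 without control 2, 0.07 without Dp3Yah 5 and 0.18 without control 5.

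The next genes act at the synapse or at membranes. C1ql2 and C1ql3 encode secreted C1q-like proteins of mossy fibre synapses, where they bind neurexin 3 and kainate receptors. C1ql2 measured 8.15, 8.15, 8.11, 8.27 and 8.32 in Dp3Yah mice and 8.55, 8.44, 8.41, 8.45 and 8.36 in controls. All 5 Dp3Yah mice were below the lowest control, with the nearest pair, Dp3Yah 5 and control 5, at 8.32 and 8.36. The difference was -0.24 (SE 0.052), 1.18-fold lower, and stayed between -0.27 and -0.22 with any 1 mouse left out.

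C1ql3 did not show this separation. Dp3Yah mice measured 9.83, 9.47, 9.78, 9.71 and 9.83 and controls 9.99, 9.84, 9.71, 9.80 and 9.64. Only Dp3Yah 2 was below the lowest control, and the difference of -0.07 (SE 0.078) became -0.01 without that mouse, -0.02 without control 1 and -0.11 without control 5.

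Stxbp6 encodes amisyn, which binds syntaxin in SNARE complexes and so acts in vesicle fusion. Its values were 9.17, 8.97, 9.07, 9.15 and 9.26 in Dp3Yah mice and 9.34, 9.29, 9.42, 9.46 and 9.21 in controls. Of the Dp3Yah mice 4 were below the lowest control, and Dp3Yah 5 was above control 5 only. The difference was -0.22 (SE 0.062), 1.17-fold lower.

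Fam163b encodes a small membrane protein with no well established role. It measured 9.36, 8.91, 9.33, 9.58 and 9.41 in Dp3Yah mice and 9.50, 9.54, 9.61, 9.68 and 9.59 in controls. The controls lay close together (SD 0.068), while the Dp3Yah mice were spread (SD 0.249) by the low value of Dp3Yah 2. The difference of -0.26 (SE 0.098) became -0.16 without that mouse.

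Calb1 encodes calbindin, a calcium-buffering protein of mature granule cells that CA1 pyramidal cells and interneurons also express. It measured 9.97, 10.34, 10.01, 9.79 and 9.98 in Dp3Yah mice and 10.23, 9.84, 9.85, 9.73 and 9.72 in controls. Each group held 1 high mouse, Dp3Yah 2 and control 1, and the groups overlapped. The difference was 0.14 (SE 0.11), ranging from 0.06 without Dp3Yah 2 to 0.23 without control 1.

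The genes also differed in how far mice of 1 group spread. The pooled SD within groups was 0.244 for Dsp, 0.210 for Prox1, 0.204 for Calb1 and 0.183 for Fam163b, but 0.081 for C1ql2 and 0.084 for Tmem108. The median over all genes was 0.087, and 8 of the 10 exceeded it. Dsp was at the 97.8th and Prox1 at the 96.6th percentile of all genes, while C1ql2 was at the 42.5th and Tmem108 at the 46.0th. Thus the genes without overlap were those with a spread near that of a typical gene, and Prox1, with a difference of -0.18, was among the most variable.

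By mouse, the lower values were not shared evenly. The median of the 10 genes relative to the control mean was -0.31 in Dp3Yah 3 and -0.27 in Dp3Yah 2, and it was -0.06, -0.09 and -0.14 in Dp3Yah 1, 4 and 5. Controls 1 to 5 had medians of 0.06, -0.05, -0.02, 0.02 and 0.02. Dp3Yah 3 was the lowest of its group for 6 genes and Dp3Yah 2 for 3. Control 2 was below the control mean for 9 of the 10 genes, the same number as Dp3Yah 2 and Dp3Yah 3, though by less. The mean of the 10 genes ranged from 8.13 to 8.35 in Dp3Yah and from 8.28 to 8.46 in control mice, so the groups overlapped. The median difference was -0.14 without Dp3Yah 3 and -0.17 without Dp3Yah 2.

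**Figure D2:**
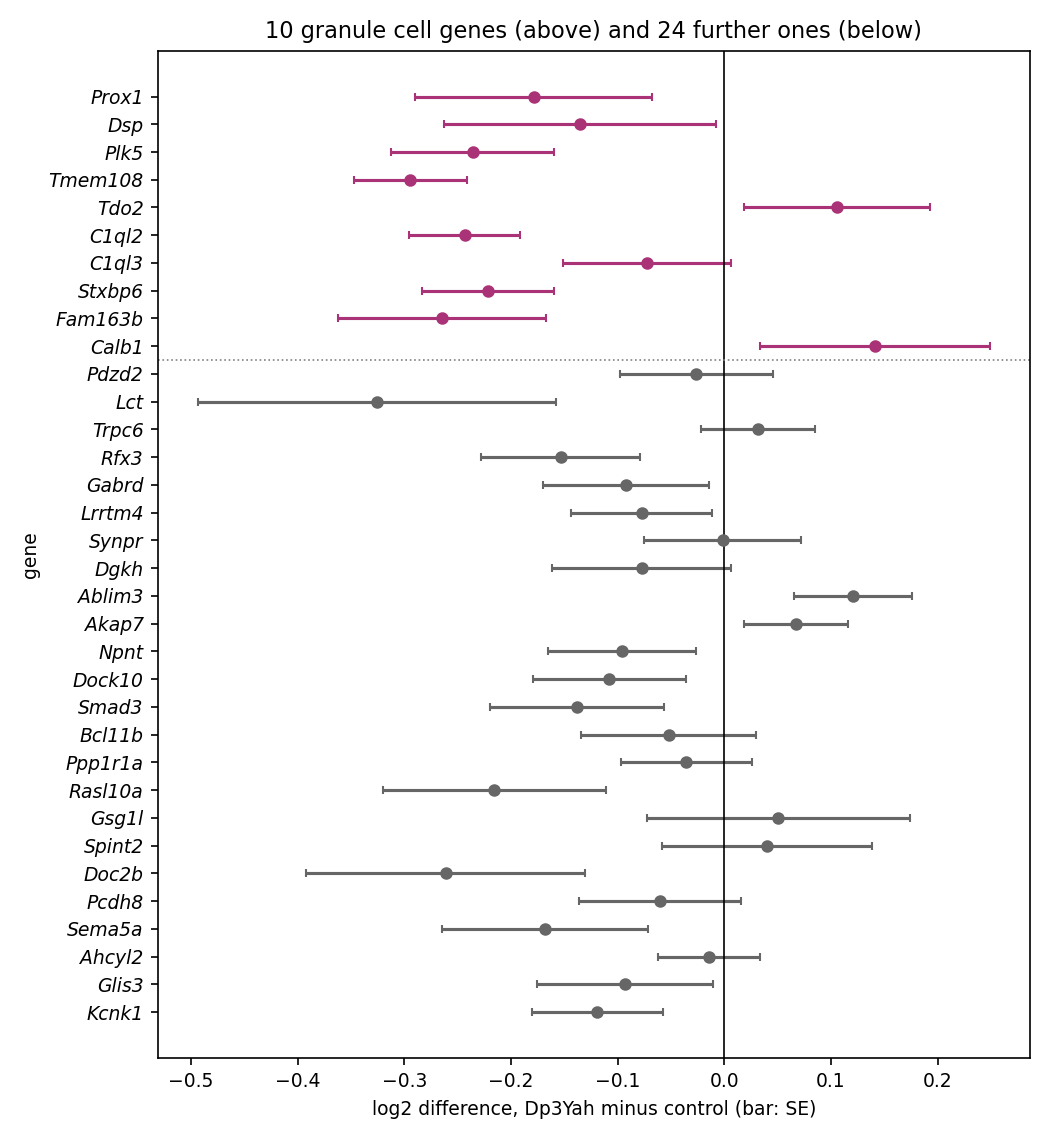
Difference in log2 value, Dp3Yah minus control (x axis), of the 10 granule cell genes (above the dotted line) and of 24 further granule cell genes (below it); points are differences of the group means and bars their SE, n = 5 mice per group. Differences are negative for 8 of the 10 and for 19 of the 24.

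To separate variation between mice from the group difference, genes were correlated over the 10 mice after the mean of each group had been subtracted. The points share the arrays, their normalisation and the dissection, and the genes are not independent. Of the 45 pairs 32 had a positive Pearson r, with a median of 0.138 (Spearman's rho 0.212), where the median over all gene pairs was 0.035. This median was -0.092 with a replicate block, 0.079 after quantile normalisation and 0.090 to 0.276 with 1 mouse left out. In 7 pairs, 15.6%, r exceeded 0.6, which 6.31% of all gene pairs did. The median rose to 0.282 when the group means were kept.

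Prox1 and Dsp were the closest pair, with r = 0.931 (rho 0.927). The value was 0.948 within Dp3Yah and 0.902 within control mice, and 0.853 without the 2 mice farthest from the median of Prox1. Dp3Yah 3 was the lowest mouse for both genes and Dp3Yah 1, control 1 and control 5 were high for both. This relation was thus present in each group by itself.

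Around this pair a set of 5 genes was formed after the values were seen: Prox1, Dsp, Plk5, Tmem108 and Tdo2. Their 10 pairs had r from 0.329 to 0.931, with a median of 0.678. This median was 0.274 (-0.261 to 0.853) without the 2 mice farthest from the median of the first gene of each pair. It was 0.489 without Dp3Yah 3, so the value depends on few mice. Leaving out the farthest mice also narrows the range of a gene, which by itself lowers r. Plk5 followed Tdo2 at 0.770 (rho 0.806) and 0.761 without the 2 farthest mice, although the group difference of Plk5 was negative and that of Tdo2 positive. Plk5 followed Prox1 at 0.783 (rho 0.612), but at 0.382 without the 2 farthest mice. That pair was at 0.684 within Dp3Yah and 0.922 within control mice. Dsp with Plk5 went from 0.670 to -0.001, with 0.482 within Dp3Yah and 0.922 within control mice. Dsp with Tmem108 went from 0.704 to 0.126, with 0.857 within Dp3Yah and 0.330 within control mice. Prox1 with Tmem108 went from 0.686 to 0.418, Prox1 with Tdo2 from 0.503 to 0.181 and Plk5 with Tmem108 from 0.410 to -0.261 (0.054 without Dp3Yah 3).

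C1ql2, C1ql3, Stxbp6 and Fam163b formed a second set, chosen in the same way. Their 6 pairs had r from 0.308 to 0.645, with a median of 0.540. This median became 0.305 without Dp3Yah 2 and 0.279 (-0.479 to 0.508) without the 2 farthest mice. The set did not hold in each group by itself. C1ql2 with Fam163b was at -0.476 within control and 0.503 within Dp3Yah mice, and C1ql3 with Fam163b at -0.573 and 0.759. The other pairs of the set were positive in both groups. C1ql2 followed Stxbp6 at 0.577 (rho 0.60) and at 0.508 without the 2 farthest mice, and with the group means kept at 0.846. C1ql2 followed C1ql3 at 0.525, which was 0.969 in controls but 0.216 in Dp3Yah mice and 0.142 without the 2 farthest mice. The differences between the groups in these correlations were not tested. Without Dp3Yah 2, the r of Stxbp6 with Fam163b went from 0.645 to 0.350, that of C1ql3 with Stxbp6 from 0.556 to 0.261 and that of C1ql3 with Fam163b from 0.439 to -0.533.

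Between the 2 sets the 20 pairs ran from -0.224 to 0.356, with a median of 0.066. C1ql2 and Tmem108, the genes without overlap between the groups, were thus in different sets, with r = -0.04 within groups against 0.76 with the group means kept. Calb1 belonged to neither, with a negative r in 7 of its 9 pairs and a median of -0.143. Its strongest relation was with Fam163b, at -0.811 (rho -0.673), which was -0.995 in Dp3Yah mice, -0.760 in controls and -0.702 without Dp3Yah 2. In Dp3Yah 2, Fam163b was the lowest and Calb1 the highest of all 10 arrays.

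**Figure D3:**
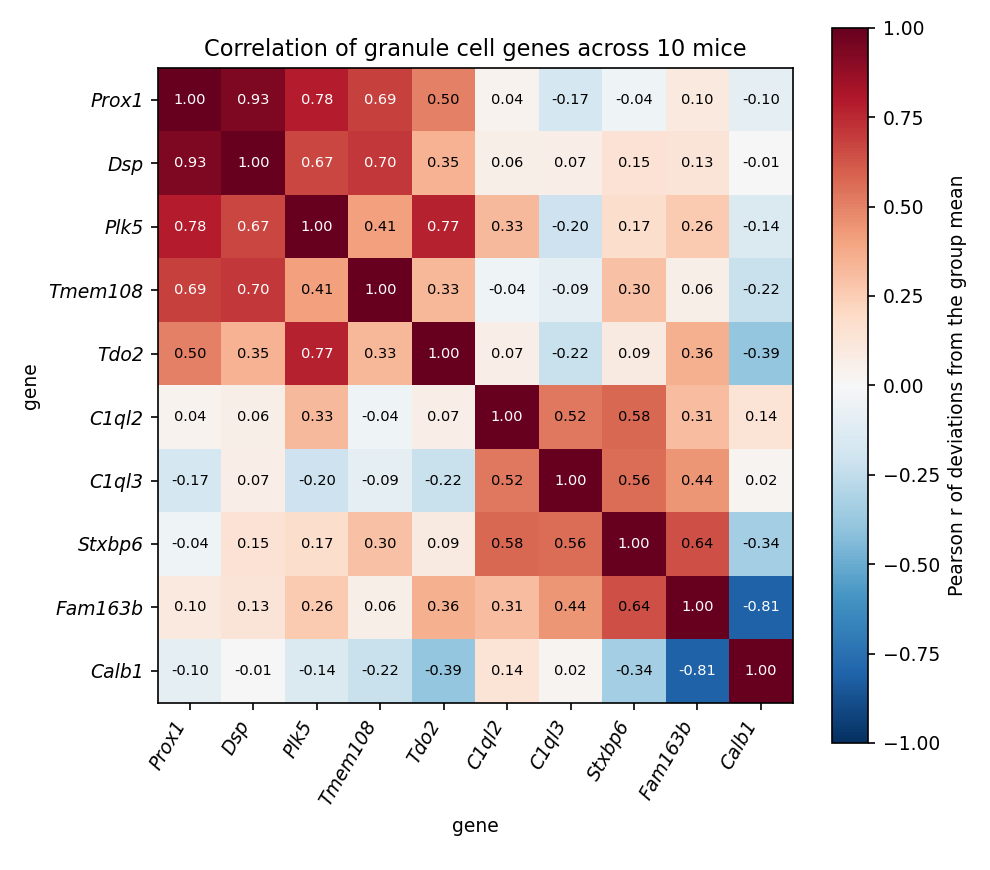
Pearson r between pairs of granule cell genes over 10 mice, computed on deviations from the mean of each group; rows and columns are genes, ordered by the sets named in the text, and the colour scale runs from -1 (blue) to 1 (red). The median is 0.678 among Prox1, Dsp, Plk5, Tmem108 and Tdo2, 0.540 among C1ql2, C1ql3, Stxbp6 and Fam163b, and 0.066 between the sets, while the single values of the sets overlap.

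**Figure D4:**
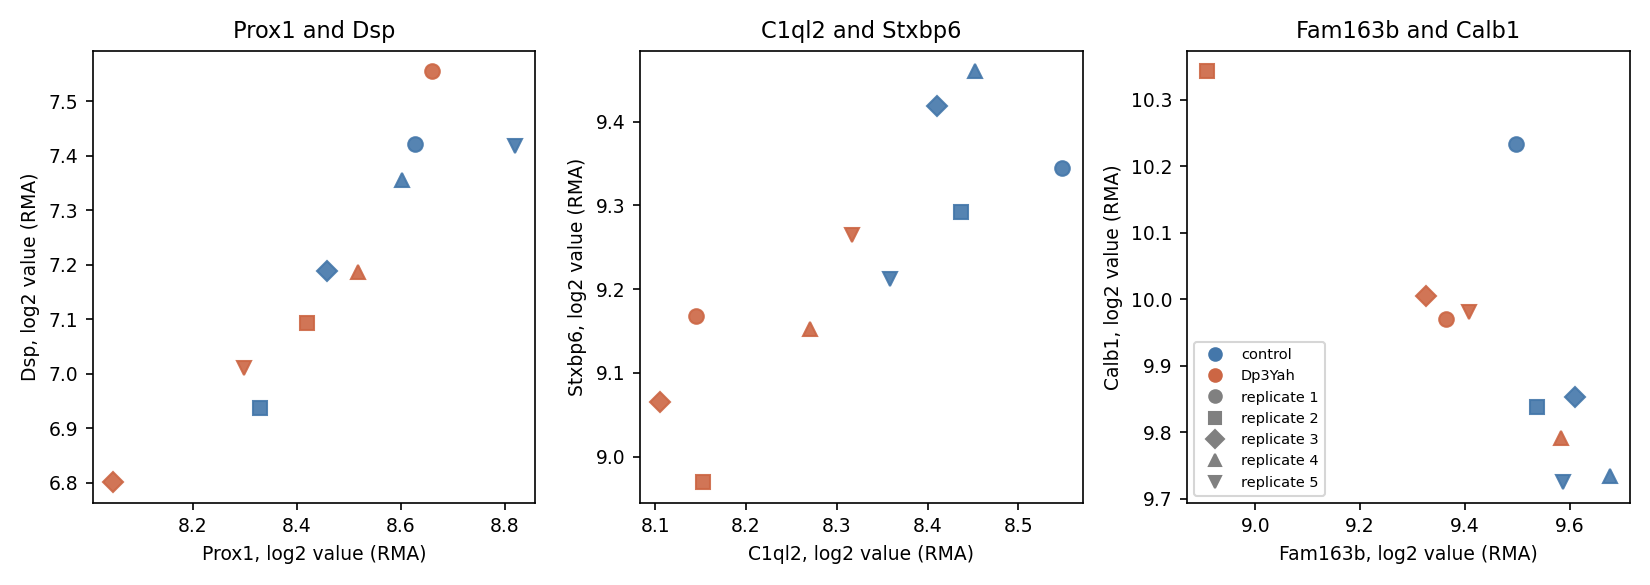
Log2 values (RMA) of 3 pairs of genes, 1 point per mouse, with colour for the group and symbol for the replicate number. Prox1 and Dsp rise together in both groups (r = 0.931 within groups), C1ql2 and Stxbp6 do so at 0.577, and Fam163b and Calb1 run opposite ways (-0.811).

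Another 24 granule cell genes were compared as a wider view of the cell type. Of these 19 had a negative and 5 a positive difference, with a median of -0.08, and limma called 0 of them (1, Ablim3, had an unadjusted p under 0.05, and it was 0.12 higher in Dp3Yah mice). For 0 of the 24 did all Dp3Yah mice lie on one side of all controls. Among the first genes of the list, Lct, the lactase gene, had the difference of -0.33 (SE 0.17), Pdzd2, a PDZ domain protein, -0.03 and the cation channel Trpc6 0.03. Lct measured 7.34 in Dp3Yah 3 and 7.59 in Dp3Yah 5, while the other 3 Dp3Yah mice, at 8.12 to 8.17, lay inside the range of the controls.

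The mean of these 24 genes per mouse followed Prox1 and Dsp. Within groups its r was 0.924 with Prox1 (rho 0.952) and 0.916 with Dsp, 0.834 and 0.824 without the 2 farthest mice. It was 0.722 with Plk5, 0.611 with Tmem108 and 0.423 with Tdo2, and that with Tmem108 became -0.11 without the 2 farthest mice. The second set was less close to it, with 0.345 for Fam163b, 0.188 for Stxbp6, 0.142 for C1ql2 and -0.009 for C1ql3. The mean ran from 8.06 to 8.27 in Dp3Yah and from 8.17 to 8.29 in control mice, lowest in Dp3Yah 3, the mouse in which Prox1 and Dsp were also lowest. Lists of other cell types, described below, were closer for some of the genes of both sets. Values in brackets are without the 2 farthest mice of a list. In the second set C1ql3 followed the astrocyte list at 0.628 (0.826). C1ql2 and Stxbp6 followed the oligodendrocyte list at 0.581 and 0.396 (0.391 and 0.455). Fam163b followed the neocortex and subiculum list at 0.732 (0.409, where the other granule cell genes were at 0.476). In the first set Plk5 followed the endothelial list at 0.864 (0.907) and Tmem108 the mossy cell list at 0.627 (0.682). Tdo2 followed the ependymal list at 0.638 (0.045), the endothelial list at 0.591 (0.754) and the mossy cell list at 0.590 (0.744). Prox1 and Dsp followed the CA2 list at 0.686 and 0.685 (0.245 and 0.251), less closely than the other granule cell genes.

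Genes of newborn granule neurons and progenitors had a median difference of -0.01 over 11 genes, of which 8 were negative and 3 positive, and how this compares with the mature genes was not tested. Among them were the migration gene Dcx at -0.03, Igfbpl1 at -0.00 and the transcription factor Sox11 at -0.08 (SE 0.10, 0.09 and 0.08). Within groups their mean had r = -0.56 with Prox1 and -0.55 with Dsp but 0.45 with C1ql2, and these became -0.12, -0.10 and 0.19 without the 2 farthest mice. Igfbpl1, Eomes, Neurod4, Mki67 and Top2a were dim, below the array medians on every array. The mean is not scaled by gene, and Tbr1 spread most in the list, from 8.66 to 9.56 (SD 0.346 in Dp3Yah mice). These values are thus a weak readout of newborn granule cells.

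The partners of the C1q-like proteins were taken from a list of 11 genes that includes C1ql2 and C1ql3. The median difference of this list was 0.01. The family members C1ql1 (0.05, SE 0.07) and C1ql4 (-0.03, SE 0.04) and the related Cbln2 (-0.14, SE 0.12) and Cbln4 (0.24, SE 0.19) had differences of either sign. The kainate receptor genes Grik2 (0.01, SE 0.040) and Grik4 (-0.01, SE 0.12) and the neurexin gene Nrxn3 (0.02, SE 0.044) differed by less than their SE. Adgrb3, the adhesion receptor that C1q-like proteins bind, was 0.11 higher (SE 0.04), at 9.12 to 9.21 in Dp3Yah against 9.03 to 9.11 in control mice. The ranges of Adgrb3 did not overlap, which was so for 0.522% of all genes in this direction, and it was not called.

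Other cell types of the hippocampus were measured by lists of their markers, and limma called 0 genes in any of them, while 3 genes, Calcrl of mossy cells, Dcn of the CA1 list and Cx3cr1 of microglia, had an unadjusted p under 0.05. CA1 pyramidal cell genes had the largest median, 0.18 over 6 of 7 listed genes, of which 5 were higher, with 0.12 for Wfs1 (SE 0.16), 0.25 for Fibcd1 (SE 0.13) and -0.02 for Pou3f1 (SE 0.06). Their mean per mouse averaged 9.10 (SD 0.091) in Dp3Yah and 8.93 (SD 0.12) in control mice, and the groups overlapped. With this mean as a covariate, added after the data were seen, the median difference of the 10 granule cell genes was -0.11 in place of -0.20. Under it Tmem108 was at -0.27, C1ql2 at -0.21, Stxbp6 at -0.20, Fam163b at -0.16, C1ql3 at -0.12, Plk5 at -0.11, Dsp at -0.08 and Prox1 at -0.06. Tdo2 went from 0.11 to 0.22, and Calb1, which CA1 cells also express, went from 0.14 to -0.01. The part of the CA1 level in the granule cell differences was not tested.

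Choroid plexus genes had a median of 0.15, with per mouse means that split both groups. In Dp3Yah mice 1 to 5 the mean was 7.71, 8.21, 6.44, 6.40 and 8.35, and in controls 8.38, 6.31, 6.52, 6.54 and 8.49. The low mice were Dp3Yah 3 and 4 and controls 2, 3 and 4. This mean had r = 0.51 with Prox1 and 0.46 with Dsp within groups. With it as a covariate, the median difference of the granule cell genes was -0.21.

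The medians of the remaining lists lay between -0.05 and 0.09. They were -0.00 for mossy cells, 0.06 for CA2 and -0.03 for CA3 pyramidal cells, 0.00 for interneurons, -0.05 for neocortex and subiculum, 0.09 for ependymal cells, -0.04 for meninges, 0.06 for astrocytes, 0.03 for oligodendrocytes, 0.09 for microglia and -0.01 for endothelial cells. All 6 microglial and all 6 astrocytic genes had positive differences. Within groups the mean of the granule cell genes, each scaled by its SD, followed the other granule cell genes at r = 0.77. It followed the endothelial list at 0.72, oligodendrocytes at 0.69, mossy cells at 0.606, ependymal cells at 0.581 and CA2 at 0.568. Without the 2 mice farthest in each list, mossy cells were at 0.833, oligodendrocytes at 0.770 and endothelial cells at 0.659. The other granule cell genes were then at 0.560, ependymal cells at 0.559 and CA2 at -0.082. Fam163b ran against the microglial list at -0.88 (rho -0.709) and Calb1 with it at 0.74 (rho 0.394). Without Dp3Yah 2 these values were -0.629 and 0.501, and without the 2 farthest mice -0.629 and 0.432. The part of these cell types in the variation of the granule cell genes was not tested.

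**Figure D5:**
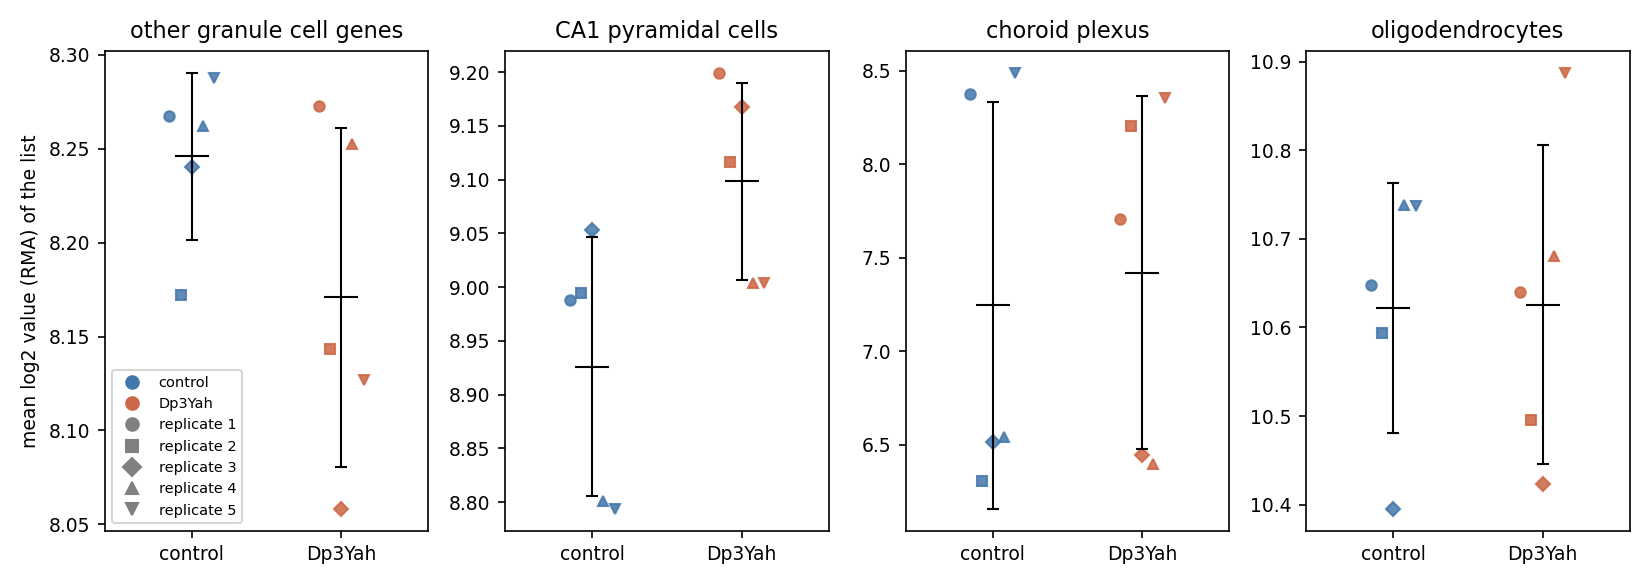
Mean log2 value (RMA) of 4 marker lists (y axis, a scale of its own in each panel) in control and Dp3Yah mice (x axis), 1 point per mouse, with the group mean and SD. The other granule cell genes were lowest in Dp3Yah 3, CA1 genes were higher on average in Dp3Yah mice, and choroid plexus genes split both groups.

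Of 9960 other genes with a mean above the median of all genes, those most like the scaled mean of the 10 over the 10 mice, within groups, were Tbc1d14 (r = 0.951), Hhatl (0.949), Shisa9 (0.934), Peg10 (0.931), Il1rap (0.929), Nup160 (0.927), Uck1 (0.924), Rab39b (0.919), Tmem38b (0.915) and Scd1 (0.915). Their group differences were of either sign. Peg10 was at -0.23 (SE 0.13), Shisa9 at -0.16 (SE 0.057) and Il1rap at -0.16 (SE 0.083), whereas Hhatl was at 0.12 (SE 0.068) and Tbc1d14 at -0.02 (SE 0.047).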

How the data were processed

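Gene expression was measured on 10 Affymetrix Mouse Gene 1.0 ST arrays, 5 per group. The deposited values are log2 intensities per probe set, which the authors made with RMA (background correction, normalisation of all arrays together and a summary of probes). The submitters' processing notes name RMA, limma and the mm10 build, with no tool versions. RMA forces arrays to a common distribution and so reports changes relative to the other genes. Saturation, background and single probes cannot be examined in such values, and the number of arrays limits the precision.

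Of 35556 probe sets 21789 were annotated to 1 gene, 1621 to several (not used) and 12146 were unnamed here. Where a gene had several probe sets (998 genes), that with the highest mean was used. Symbols and coordinates came from RefSeq GRCm38.p6 (19856 of 19939 genes). Dp3Yah was compared with control over all genes with limma 3.58.1 in R 4.3.3 (lmFit, eBayes, no covariate, Benjamini-Hochberg adjusted p under 0.05, two-sided), and the SE given are from that fit. Its p-values set the group difference of a gene against the spread between mice within groups, which eBayes moderates with that of all genes. The study's fold change rank test was rewritten from its principle (trim 0.25, f under 0.025 or over 0.975) as an alternative. Correlations are Pearson's r over deviations from group means. The limma step was tested on simulated data.

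The genes, lists and tests were chosen with earlier results of these data known. The named genes were the 10 themselves, the first 3 measured genes of each other list and any called gene (some of these lists are given by their median alone), the 10 genes most alike, and a gene on which a value turned; the C1q-like partners beyond the first 3 were named after their values were seen. Alternatives were a replicate block, the mean of probe sets, quantile normalisation, median centring, array weights, a trended robust variance, a filter on dim genes, all probe sets and each mouse left out.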

Additional observations from a re-analysis of the deposited data

Results flagged for a closer look

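The highest or lowest mouse of each group was compared with the rest of its group in 52 groups of 5 mice, 20 of them for the granule cell genes, and chance alone marks about 1 in 20 groups. In 2 groups a mouse stood apart. Calb1 was 10.23 in control 1, where the other controls were at 9.72 to 9.85, and the gap was 0.747 of the range of the group. Without this mouse the difference of Calb1 was 0.23 instead of 0.14. The mean of the C1q-like family and its partners was 7.97 in Dp3Yah 2, where the other Dp3Yah mice were at 8.08 to 8.13, a gap of 0.741 of the range. Fam163b and C1ql3 were also lowest in that mouse.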

How the results depend on the processing

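With any 1 mouse left out, limma called 1 to 4 genes instead of 3, with 1 called without Dp3Yah 4 and without control 3, 4 or 5. It called 5 with array weights, 6 with a trended robust variance, 1 when all probe sets were tested and 0 with the CA1 level as covariate (766 genes at an unadjusted p under 0.05, 1013 in the main comparison), while the rank test placed 915 genes past its thresholds. With the replicate block it called 3, and the deviations of mice with the same number had correlations from -0.364 to 0.315. Mice with different numbers were not compared, so these values cannot decide whether the numbers pair mice. The median difference of the 10 genes, -0.20, ranged from -0.24 to -0.14 with 1 mouse left out and was -0.11 with the CA1 level as covariate. Of 180 alternative values of single genes, 0 moved by more than the SD within groups. This was largely fixed in advance and is no measure of robustness. The replicate block, the mean of probe sets and the trended robust variance leave each difference unchanged. Leaving out 1 mouse of a group can shift its mean by only a part of that SD. Of the 180, 1 changed sign (Calb1, -0.01 with the CA1 level as covariate). The median correlation of the 45 pairs, 0.138, moved more. It was -0.092 with a replicate block, 0.079 after quantile normalisation, 0.081 after median centring, 0.212 as Spearman's rho, 0.282 with group means kept, 0.249 with the choroid plexus level removed and 0.090 to 0.276 with 1 mouse left out (0.090 without control 2, 0.211 without Dp3Yah 5, 0.276 without control 5). Every relation here rests on 10 mice.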
